A study of Homo sapiens with 12 samples.

Results

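The genes described here are helicases of the DDX and DHX families and translation initiation factors with poly(A)-binding and La-related proteins. With them are RNA decay factors, 3′ end and export factors, and spliceosome proteins. All were chosen by symbol, as protein-coding genes whose names begin with DDX, DHX, EIF, LARP, PABP, CNOT, EXOSC, EDC, DCP, LSM, UPF, SMG, CPSF, CSTF, THOC, PRPF, SF3 or LUC7L. A cassette exon, which a transcript can carry or skip, was taken as a member when it matched an annotated exon of such a gene on the same strand of hg38 and was listed in all 12 libraries. The rule gave 84 exon events in 61 genes, of 4992 events listed in every library. Of these, 55 events in 42 genes reached 10 isoform-specific reads in every library and were tested for inclusion, of 2695 such events in all; an isoform-specific read fits only the form with the exon or only the form without it. The other 29 members were described by their reads alone.

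RNA came from derivatives of MCF10A, an immortalised line of human mammary epithelium that does not form tumours, each with a stably integrated construct. The constructs were a catalytically dead TIP60 (labelled *KD-TIP60) and a wild-type TIP60 (*WT-TIP60), both resistant to the siRNA, and the empty vector (MSCV) without TIP60. Every line kept its own copy of TIP60, a lysine acetyltransferase encoded by KAT5, and every line was transfected (Lipofectamine RNAiMAX) with TIP60 siRNA or control siRNA and harvested 72 h later. Each of the 6 groups had 2 libraries, numbered 1 and 2 in the labels, which do not say whether they came from separate cultures or how many clones made up a line. The p-values below therefore measure the spread between these libraries, which may be technical.

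DEAD-box and DEAH-box helicases use ATP to unwind RNA or to strip proteins from it, and serve in ribosome assembly, splicing, export and translation. In translation initiation, the cap-binding protein eIF4E, the scaffold eIF4G and the helicase eIF4A assemble at the 5′ end of an mRNA, eIF4B and eIF4H stimulate the helicase, and eIF3 brings in the small ribosomal subunit. Decay of an mRNA usually begins when the CCR4-NOT complex shortens the poly(A) tail, after which the decapping factors open the 5′ end or the exosome degrades the RNA from the 3′ end. Nonsense-mediated decay, with its UPF and SMG proteins, removes transcripts whose reading frame ends early, so that a skipped or added exon in such a gene can alter both a protein and the amount of its mRNA.

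Some of the exons named below are shown first, since their place in the reading frame differs. Sequences are from the GENCODE release 29 transcripts on GRCh38 (hg38), 5′ to 3′ on the strand of the gene, with the cassette exon in capitals and 10 bases of each neighbouring exon in lower case. The EIF4H exon at chr7:74190247-74190306 (+, 60 nt, 20 codons) and the CNOT4 exon at chr7:135363854-135364066 (−, 213 nt, 71 codons) lie wholly in the coding sequence and keep the frame.
EIF4H: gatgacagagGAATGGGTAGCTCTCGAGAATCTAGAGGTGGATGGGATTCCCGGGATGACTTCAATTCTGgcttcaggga
EIF4H without the exon: gatgacagaggcttcaggga
CNOT4: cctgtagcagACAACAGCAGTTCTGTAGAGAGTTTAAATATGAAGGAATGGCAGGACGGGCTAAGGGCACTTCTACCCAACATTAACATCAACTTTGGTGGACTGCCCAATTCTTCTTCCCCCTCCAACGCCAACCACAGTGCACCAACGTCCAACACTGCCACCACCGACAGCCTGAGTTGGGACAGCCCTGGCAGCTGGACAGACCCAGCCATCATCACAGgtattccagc

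The LSM14A exon at chr19:34226408-34226464 (+, 57 nt) ends a reading frame: in the annotated transcript its first 21 bases are coding and the next 3 are a stop codon. Only these 24 bases of the exon are shown, after 10 bases of the exon before it. The coding CNOT8 exon at chr5:154870661-154870822 (+, 162 nt, 54 codons) and the DDX55 exon at chr12:123616511-123616603 (+, 93 nt, 31 codons) are shown because they had the lowest p among the exons whose level was lower with TIP60 siRNA, CNOT8 in the average over lines and DDX55 in catalytically dead TIP60 cells.
LSM14A: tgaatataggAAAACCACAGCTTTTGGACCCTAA
CNOT8: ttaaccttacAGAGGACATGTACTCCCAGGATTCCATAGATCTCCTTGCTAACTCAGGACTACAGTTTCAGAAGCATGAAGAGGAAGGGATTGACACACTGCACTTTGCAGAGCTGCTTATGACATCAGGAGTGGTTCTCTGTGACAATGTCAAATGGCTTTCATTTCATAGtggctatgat
DDX55: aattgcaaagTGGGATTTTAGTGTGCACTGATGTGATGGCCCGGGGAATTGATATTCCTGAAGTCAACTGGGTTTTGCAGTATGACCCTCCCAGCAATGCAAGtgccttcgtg

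A pair of nested EIF4A1 exons and the EIF4G1 microexon show how small the tested units can be. The EIF4A1 exons at chr17:7578165-7578244 (+, 80 nt) and chr17:7578227-7578244 (+, 18 nt, 6 codons) share their end and both neighbours. The shorter one is whole codons long and so keeps the frame of the form without an exon. The form with the 80-nt exon, at a mean inclusion of 0.999, continues in another frame. Against that form, both use of the 18-nt exon and skipping shift the frame. The EIF4G1 microexon at chr3:184316713-184316733 (+) has 21 nt and 7 codons.
EIF4A1, 80 nt: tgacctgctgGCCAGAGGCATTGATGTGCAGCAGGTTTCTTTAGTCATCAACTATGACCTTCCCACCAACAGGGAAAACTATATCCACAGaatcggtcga
EIF4A1, 18 nt: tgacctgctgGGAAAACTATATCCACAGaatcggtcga
EIF4G1: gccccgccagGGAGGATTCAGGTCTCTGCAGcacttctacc

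The libraries carried the marks of their labels. KAT5 reads of the form with its cassette exon numbered 0 to 9 in TIP60-siRNA libraries, against 8 to 37 in control-siRNA libraries, and relative to all event reads they were lower in 6 of 6 pairs of the same number. The form without the exon stood at 28.2 to 2291 reads per 1000000 event reads (RPM) in both lines with TIP60 constructs, against 0 to 8.38 RPM in empty-vector cells. Libraries numbered 1 held 1983221 to 2280488 event reads, of which 50.1% to 53.2% fitted neither isoform, and libraries numbered 2 held 1277953 to 1566296, with 64.5% to 65.7%. Epithelial markers, 6 of 12 with a listed event, summed to more with TIP60 siRNA in 5 of 6 pairs: 4806 and 4351 RPM with TIP60 siRNA against 2991 and 3355 RPM with control siRNA in the catalytically dead line, 5201 and 3701 against 4424 and 4386 RPM in the wild-type line, and 2989 and 3970 against 2721 and 3303 RPM in the empty-vector line. Of 6 mesenchymal markers FN1 alone had listed events and was higher with TIP60 siRNA in each of the 6 pairs: 2469 and 819.3 RPM with TIP60 siRNA against 816.0 and 236.9 RPM with control siRNA in catalytically dead TIP60 cells, 560.5 and 34.1 against 338.3 and 21.3 RPM in wild-type TIP60 cells, and 1254 and 316.1 against 566.5 and 124.2 RPM in empty-vector cells. The 5 immune markers had no listed event.

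Most of the member exons were close to constitutive. Mean inclusion is the estimated fraction with the exon among transcripts of both forms of an event. It was over 0.9 in 28 of 55 members (50.9%), against 1032 of 2695 tested events (38.3%). It lay between 0.1 and 0.9 in 17 members (30.9%, against 46.3% of all tested events) and under 0.1 in 10. Member exons had a median length of 101 nt, against 126 nt over all tested events, ranged from 18 to 840 nt, and were a multiple of 3 long in 37 of 55 (67.3%), against 56.1%. The cassette exon was coding in 48 members and untranslated in 7. No test was made of these shares, which describe exons of unequal depth.

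By role, over 0.9 was the level of 6 of 9 helicase exons, 11 of 23 translation exons, 7 of 16 decay exons, 3 of 4 exons of 3′ end and export genes, and 1 of 3 spliceosome exons. The highest means were in EIF4A1 (80-nt exon, 0.999), the initiation helicase, in EIF3E (0.998), a subunit of eIF3, and in EIF1AX (0.988), which keeps the ribosome scanning for a start codon; EIF3E and the 80-nt EIF4A1 exon were at 0.99 or 1.00 in all 12 libraries. The lowest were 2 events with the same 95-nt untranslated exon of EIF5A (0.005 and 0.00583), a factor that helps ribosomes through hard stretches of peptide, and a coding exon of LSM12 (0.0142), a protein of the LSM family. Only 10 of the 55 exons ranged over more than 0.2 among the libraries, and 28 ranged over 0.1 or less. In 7 members no read of any library fitted only the form without the exon (12.7%, against 12.5% of all tested events), and in 25 there were at most 3 such reads in each library (45.5%, against 37.4%). The levels of these exons rest almost entirely on reads with the exon.

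**Figure D1:**
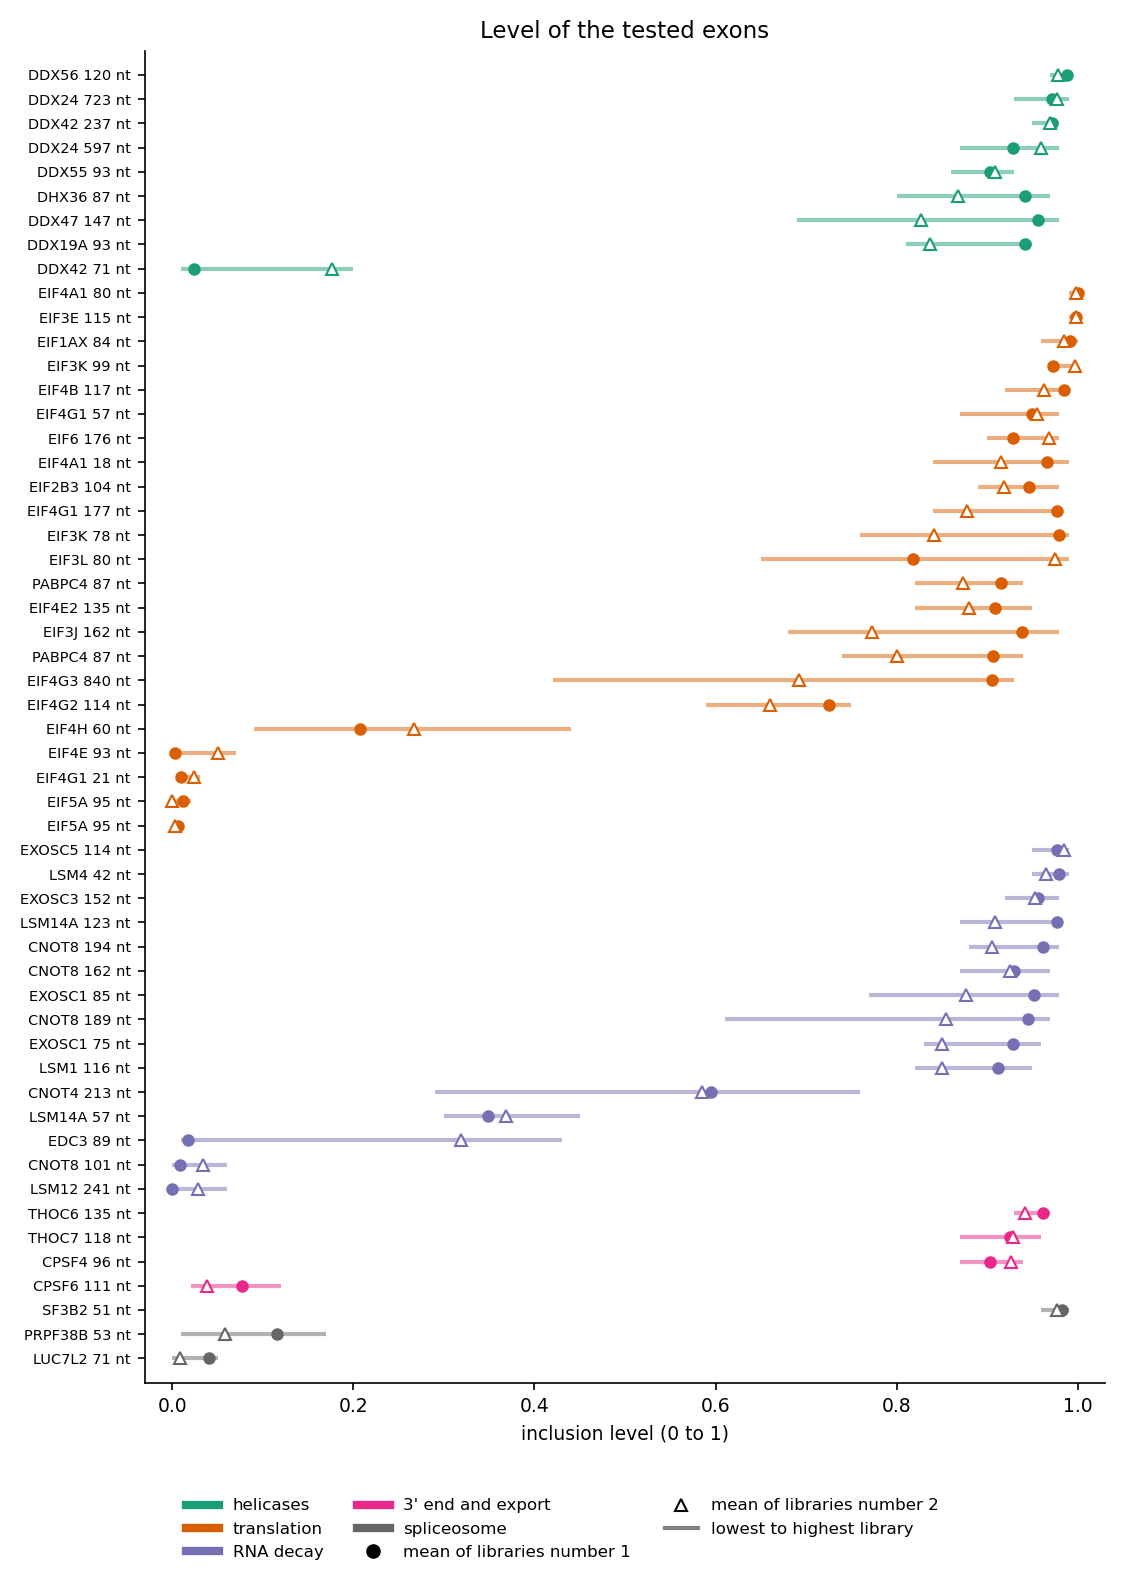
Inclusion level (0 to 1) of the tested exons, all but 1 of 55, named by gene and exon length and grouped by role; filled circles are the means of the 6 libraries numbered 1, open triangles the means of the 6 numbered 2, and bars run from the lowest to the highest of 12 libraries. Most exons sit over 0.9 or under 0.1, and the exons of EDC3, EIF4G3, EIF3J, EIF3L and DDX42 (71 nt) differ most between the library numbers.

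In 9 members the means of the libraries numbered 2 and 1 differed by more than 0.1 (16.4% of members, against 22.7% of all tested events). The untranslated 89-nt exon of EDC3, which enhances decapping, was the extreme case, at 0.17 to 0.43 in every library numbered 2 and at 0.01 or 0.02 in every library numbered 1. Its mean was 0.318 and 0.0167 in these sets. An 840-nt exon of the scaffold EIF4G3 had means of 0.692 and 0.905 in the same order of sets, and a 162-nt exon of EIF3J, a loosely bound eIF3 subunit, had 0.773 and 0.938. These 2 had 1 and 4 reads without the exon in all 12 libraries together. The other 6 were in EIF3L (0.975 and 0.818), DDX42 (71-nt exon, 0.177 and 0.0233), EIF3K (78-nt exon, 0.842 and 0.98), DDX47 (0.827 and 0.957), PABPC4 (1 of its 2 events, 0.800 and 0.907) and DDX19A (0.837 and 0.942). Of these 6, reads without the exon over all libraries numbered 13 for EIF3L, 7 for DDX47, 5 for this PABPC4 event and 1 for DDX19A. EIF3K had 43, with 3 to 16 in each library numbered 1. Each library numbered 2 held 0 or 1 of them, among 16 to 70 isoform-specific reads. For DDX42 no read of a library numbered 1 fitted only the form with the exon, against 34 to 106 in those numbered 2. Both numbers held every group, so that these gaps do not separate the siRNAs or the lines.

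TIP60 siRNA against control siRNA asked which exons respond to loss of TIP60, and whether a resistant active or inactive copy alters the response. Across the 55 members the differences were small. In catalytically dead TIP60 cells 44 members differed by 0.05 or less, in wild-type TIP60 cells 46, in empty-vector cells 48, and in the average over the 3 lines 49. The median difference of the members was −0.005, 0 and −0.005 in these lines, and −0.01, −0.005 and −0.005 over all tested events. For the average the medians were −0.00333 and −0.00667, with 60% of members and 62.2% of all events lower.

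No member passed an adjusted p of 0.05 in any siRNA comparison with limma, which called 1 event (0.0371%) in catalytically dead TIP60 cells, 0 (0%) in wild-type TIP60 cells, 1 (0.0371%) in empty-vector cells and 57 (2.12%) in the average. At an unadjusted p under 0.05 the members counted 3 in catalytically dead TIP60 cells, all lower (6.72% of all events in either direction and 5.71% lower), 0 in wild-type TIP60 cells (4.3%), 4 in empty-vector cells, 3 of them higher (6.49%), and 4 in the average, 2 in each direction (12.4%). As shares of 55, 3 and 4 members are 5.45% and 7.27%, near or under those backgrounds. A quasi-binomial model fitted to the reads also called 0 members, against 0.0742% of events in catalytically dead TIP60 cells, 0% in wild-type TIP60 and empty-vector cells, and 1.78% in the average.

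Libraries of the same number deviated together, and a replicate block was fitted for that reason. With the block, limma called 1 member in the average, the EIF4H exon (4.16% of all events), and none in catalytically dead TIP60 (0.371%), wild-type TIP60 (0.148%) or empty-vector cells (0.148%). The quasi-binomial model with the block also called only EIF4H in the average (6.09%), and none in the single lines (0.557%, 0.111% and 0.223% in the same order of lines).

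**Figure D2:**
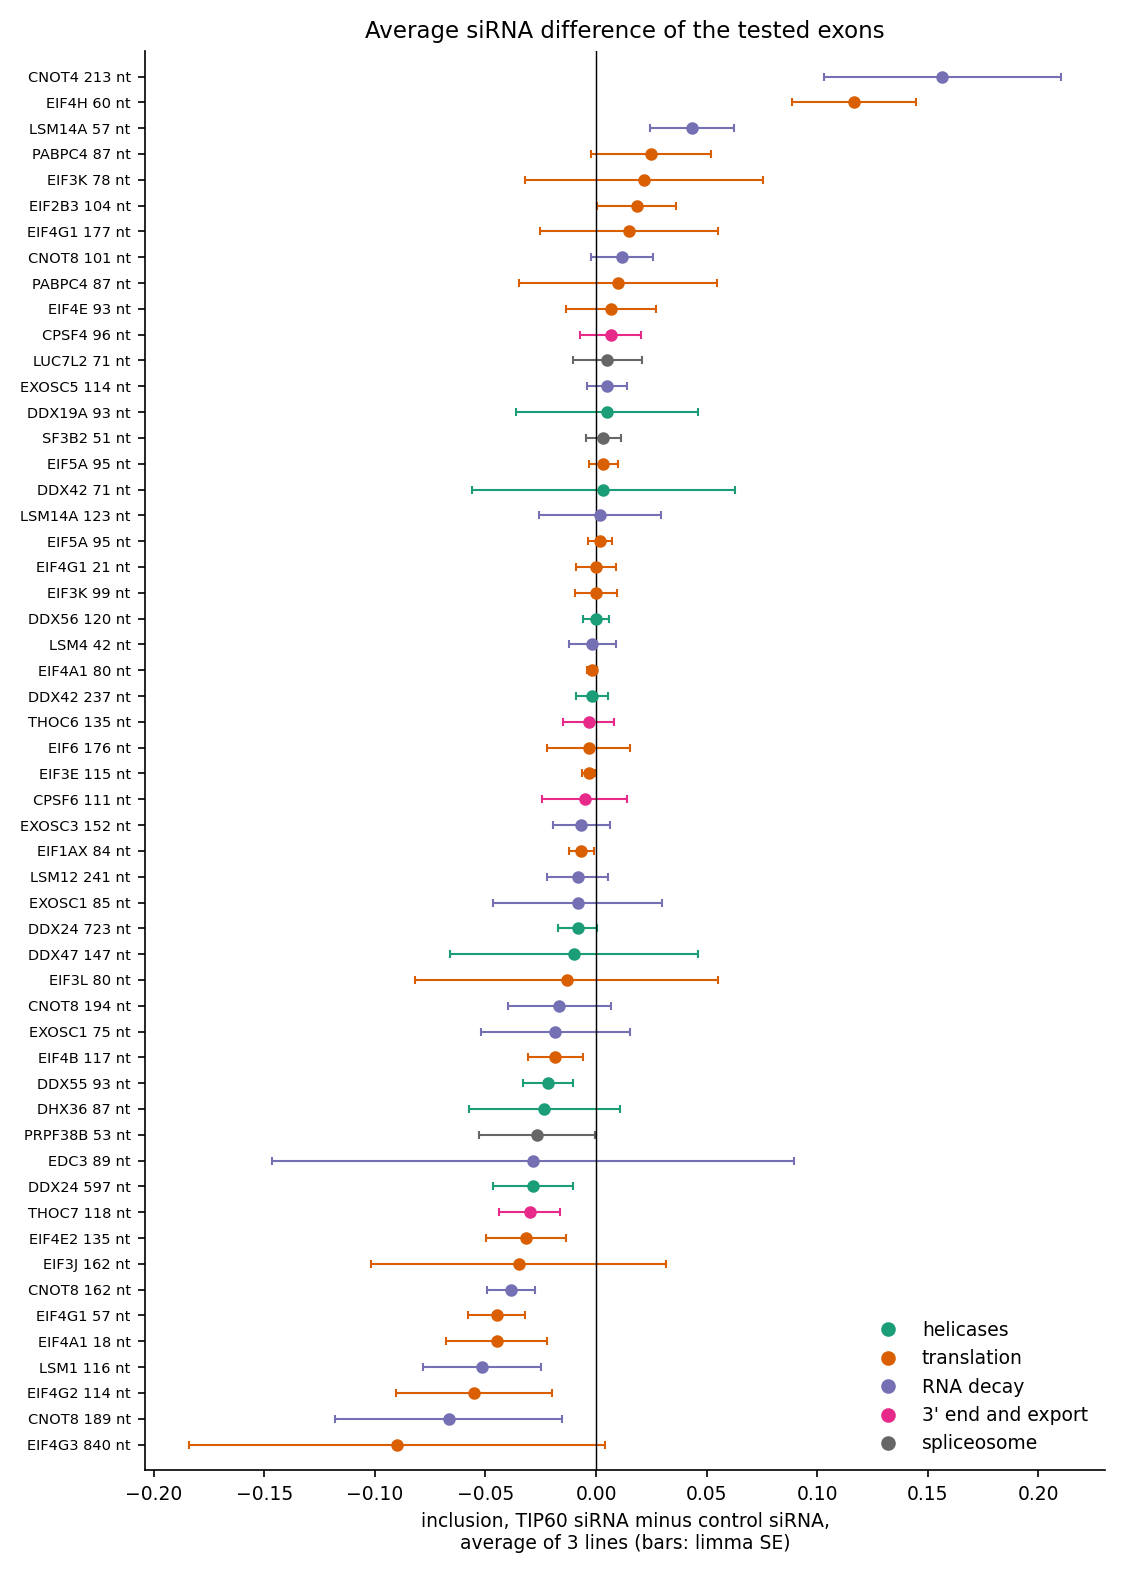
Difference in inclusion between TIP60 siRNA and control siRNA, averaged over the 3 lines, for the tested exons, all but 1 of 55, named by gene and exon length; points are limma estimates, bars their standard errors, and colours the roles. CNOT4 and EIF4H stand over 0.1 on the higher side, and the SE of EIF4H is the smaller.

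Of the translation factors, EIF4H showed the clearest change. Its 60-nt exon was at 0.19 and 0.25 with TIP60 siRNA, against 0.13 and 0.25 with control siRNA, in the catalytically dead line, at 0.25 and 0.24 against 0.09 and 0.18 in wild-type TIP60 cells, and at 0.40 and 0.44 against 0.18 and 0.24 in empty-vector cells. The TIP60-siRNA libraries lay over the control libraries in wild-type TIP60 and empty-vector cells, by at least 0.16 in empty-vector cells, and the ranges overlapped in catalytically dead TIP60 cells. In empty-vector cells 87 and 65 reads fitted only the form with the exon and 58 and 29 only the form without it under TIP60 siRNA, against 61 and 29 with and 127 and 33 without it under control siRNA. The interval deposited with each level had a median width of 0.13 for this exon.

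Over the 3 lines EIF4H inclusion averaged 0.295 ± 0.10 with TIP60 siRNA and 0.178 ± 0.0618 with control siRNA (SD, n = 6 libraries each), a difference of 0.117 (SE 0.0281; limma adjusted p = 0.118). The exon was higher in 5 of 6 pairs of the same number and equal in the other. With the replicate block the SE was 0.0170 and the exon rose (limma adjusted p = 0.0214), as it did in the quasi-binomial model with the block, by 1.09 on the log2 odds scale (adjusted p = 0.0172). With 1 library left out, the blocked limma call held in 5 of 12 cases, with adjusted p from 0.0243 to 0.0774 and differences from 0.103 to 0.131. In empty-vector cells alone the difference was 0.21 (SE 0.0486, limma adjusted p = 0.313, and 0.0809 with the block). The summed level of FN1, given above, was also higher with TIP60 siRNA in each pair, and its part in this result was not tested.

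Among the other initiation factors the exon of EIF4G1 in the 5′ untranslated region at chr3:184315489-184315545 (+, 57 nt) was lower with TIP60 siRNA in 6 of 6 pairs. It was at 0.87 and 0.94 against 0.98 and 0.97 in cells with catalytically dead TIP60, at 0.95 in both libraries against 0.98 and 0.97 in wild-type TIP60 cells, and at 0.94 and 0.93 against 0.98 and 0.97 in empty-vector cells, TIP60 siRNA first in each. No TIP60-siRNA library reached a control library of its line. The average difference was −0.045 (SE 0.0131), and it did not pass with limma (adjusted p = 0.180, and 0.123 with the block). These levels rest on few reads without the exon, namely 13, 0, 5, 1, 2 and 3 in the TIP60-siRNA libraries, against 1, 0, 1, 0, 0 and 0 in the control libraries of the same order. With 1 library left out at a time, the blocked difference ranged from −0.058 to −0.032. The value of −0.058 came without the second TIP60-siRNA library of the catalytically dead line. The 2 remaining tested events of EIF4G1, the scaffold of the cap complex, were the 21-nt microexon, at 0.01 to 0.03 with no read of any library that fitted only the form with it, and the 177-nt exon, at 0.84 to 0.98 with 1 read without the exon in all and an average difference of 0.015 (SE 0.0404).

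The 18-nt exon of EIF4A1 was also lower in 6 of 6 pairs, with 0.92 and 0.84 against 0.96 and 0.95 in cells with catalytically dead TIP60, 0.98 and 0.90 against 0.99 and 0.94 in wild-type TIP60 cells, and 0.97 and 0.90 against 0.98 and 0.96 in empty-vector cells. The groups overlapped in both of the last 2 lines, and the difference in catalytically dead TIP60 cells of −0.075 (SE 0.0394) did not pass with limma (adjusted p = 0.915, and 0.237 with the block). Reads without the exon numbered 0 to 9 per library. The longer EIF4A1 exon that contains it had the same counts without the exon in every library, and stayed at 0.99 or 1.00. Reads that fitted only the form with the exon numbered 95 to 342 per library for the 18-nt event, against 1155 to 4563 for the longer one. A response of the 18-nt exon apart from the longer one was not tested. Lower in 6 of 6 pairs were 2 of 55 members, against 9.46% of all tested events, and higher in 6 of 6 were 0, against 2.34%. The exon of EIF4E2, a cap-binding repressor of translation, stood at 0.90 and 0.82 against 0.93 and 0.91 in cells with catalytically dead TIP60 (difference −0.06, SE 0.0310, limma adjusted p = 0.906), with 0 to 3 reads without it per library. EIF4G2, an eIF4G relative that lacks the eIF4E-binding region, had a 114-nt exon at 0.70 and 0.59 against 0.70 and 0.74 in wild-type TIP60 cells, with overlapping libraries (−0.075, SE 0.0611, limma adjusted p = 1.00). This exon was at 0.73 and 0.62 against 0.72 in both control libraries in catalytically dead TIP60 cells. In empty-vector cells it was at 0.75 and 0.60 against 0.75 and 0.69. In every line the fall lay in the pair numbered 2.

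Among the decay factors the 213-nt exon of CNOT4, an E3 ubiquitin ligase that joins the CCR4-NOT complex, had the largest average difference of the 55 members. Its level was 0.63 and 0.76 with TIP60 siRNA against 0.59 and 0.66 with control siRNA in catalytically dead TIP60 cells, 0.74 and 0.54 against 0.49 and 0.54 in wild-type TIP60 cells, and 0.62 and 0.72 against 0.50 and 0.29 in empty-vector cells. Only the empty-vector libraries did not overlap. The average difference was 0.157 (SE 0.0537), from 0.668 ± 0.0854 with TIP60 siRNA and 0.512 ± 0.125 with control siRNA (SD, n = 6 each), and limma's adjusted p was 0.267. The exon was higher in 5 of 6 pairs and equal in the other. Its 23 to 72 isoform-specific reads per library gave the deposited interval a median width of 0.275.

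CNOT8, a deadenylase of the same complex, had 4 tested events. The 162-nt coding exon was at 0.87 in both libraries against 0.95 and 0.90 in catalytically dead TIP60 cells, at 0.94 and 0.96 against 0.97 and 0.96 in wild-type TIP60 cells, and at 0.91 and 0.90 against 0.94 and 0.96 in empty-vector cells. TIP60-siRNA libraries were below the control libraries in the first and last of these lines. The average difference of −0.0383 (SE 0.0109) did not pass with limma (adjusted p = 0.172, and 0.113 with the block), and reads without the exon numbered 0 to 8 per library. A 189-nt exon of the gene had 0.90 and 0.61 against 0.97 and 0.87 in cells with catalytically dead TIP60, so that 1 library carried most of the difference of −0.165 (SE 0.0891, limma adjusted p = 0.933). The 194-nt exon, with no read without it in any library, ranged from 0.88 to 0.98, and the 101-nt untranslated exon from 0 to 0.06.

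The 57-nt exon of LSM14A, a P-body protein that represses translation and binds decapping factors, stood at 0.32 and 0.38 against 0.30 and 0.37 in cells with catalytically dead TIP60, at 0.35 and 0.39 against 0.36 and 0.35 in wild-type TIP60 cells, and at 0.45 and 0.39 against 0.31 and 0.33 in empty-vector cells. The libraries were apart only in empty-vector cells, where the difference was 0.10 (SE 0.0329, limma adjusted p = 0.504). The exosome subunit genes were flat or noisy. Exons of EXOSC3 and EXOSC5 stayed between 0.92 and 0.99 in all 12 libraries, and the 85-nt exon of EXOSC1 was at 0.98 and 0.77 against 0.96 and 0.95 in wild-type TIP60 cells (−0.08, SE 0.0663, limma adjusted p = 1.00). That exon had 0 or 1 read without it per library, and without the library at 0.77 the EXOSC1 difference turned to 0.025. The exon of LSM1, a subunit of the ring that starts decapping, was lower in 5 of 6 pairs.

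**Figure D3:**
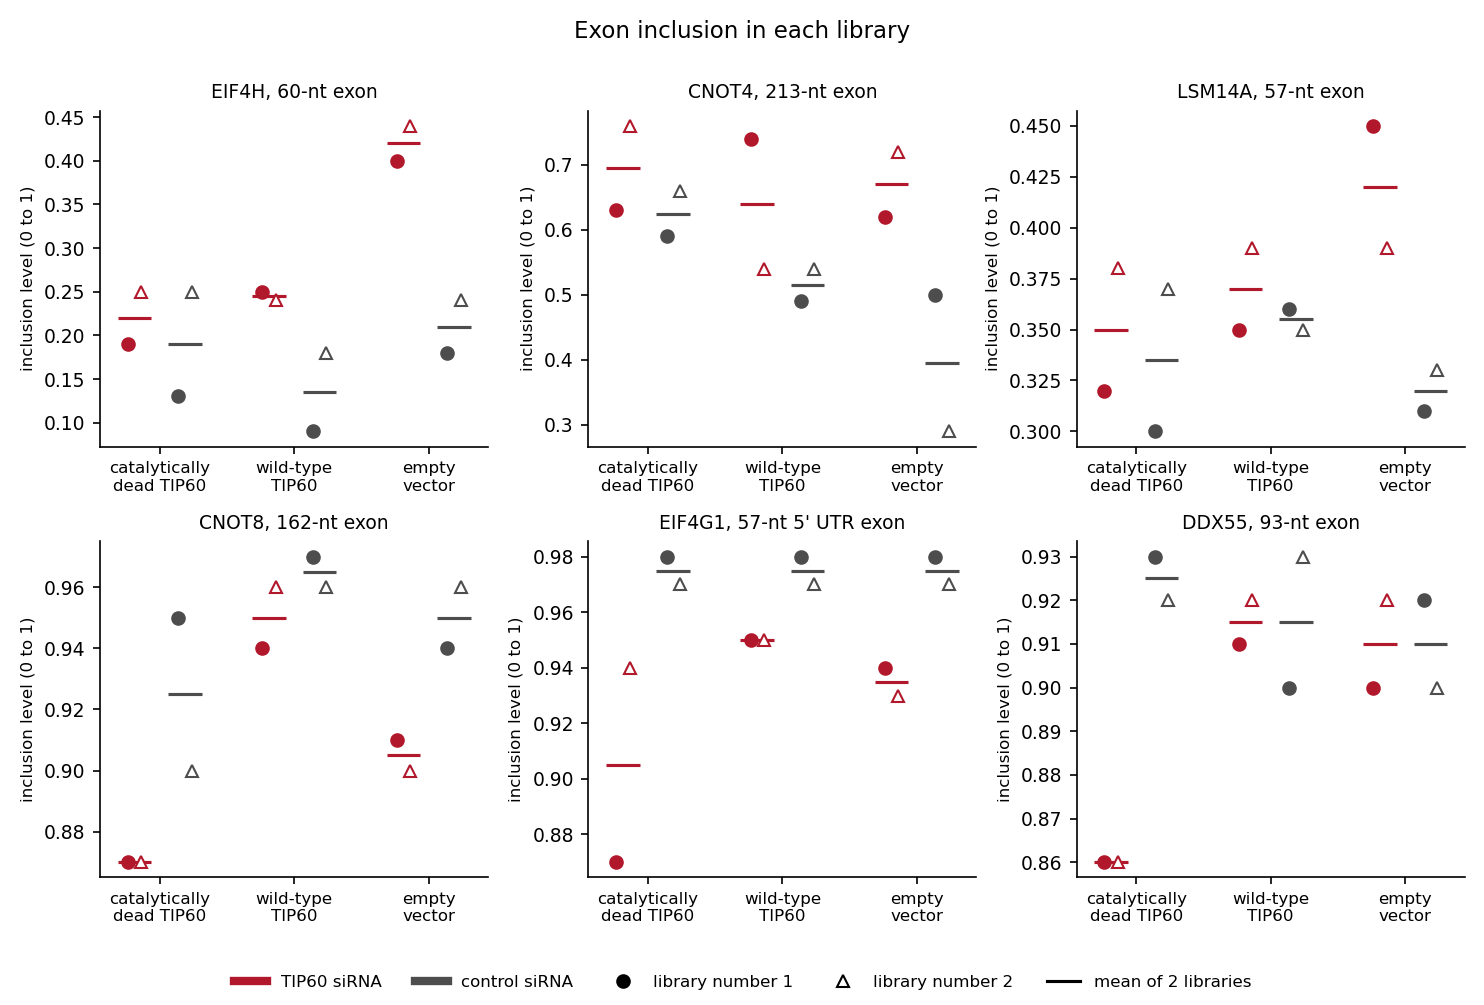
Inclusion level of 6 exons in each library, by line, with TIP60 siRNA left of control siRNA; circles are libraries numbered 1, triangles libraries numbered 2, and lines the means of 2; each panel has its own axis, which does not start at 0. EIF4H and CNOT4 have the widest gaps in empty-vector cells, and EIF4G1 is lower with TIP60 siRNA in every pair.

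Of the helicases, DDX55, which acts in assembly of the large ribosomal subunit, had the lowest p in catalytically dead TIP60 cells. Its 93-nt exon was at 0.86 in both libraries with TIP60 siRNA against 0.93 and 0.92 with control siRNA there, at 0.91 and 0.92 against 0.90 and 0.93 in wild-type TIP60 cells, and at 0.90 and 0.92 against 0.92 and 0.90 in empty-vector cells. The libraries overlapped in both other lines. No read of any of the 12 libraries fitted only the form without this exon, so that the levels rest on reads with it: 23 and 25 with TIP60 siRNA against 37 and 39 with control siRNA in the catalytically dead line, and 22 to 51 over all libraries. The difference of −0.065 (SE 0.0196) did not pass with limma (adjusted p = 0.433), and the difference between the effects in catalytically dead and wild-type TIP60 cells was −0.065 (SE 0.0277, limma adjusted p = 1.00). The deposited interval of this exon had a median width of 0.285.

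The 147-nt exon of DDX47, a nucleolar helicase, was at 0.95 and 0.69 with TIP60 siRNA against 0.98 and 0.86 with control siRNA in the empty-vector line (−0.10, SE 0.0975; adjusted p = 1.00 with limma). In wild-type TIP60 cells the DDX47 difference was 0.07 (SE 0.0975, limma adjusted p = 1.00), and each library held 0 to 3 reads without the exon. DDX24, also nucleolar, had 2 nested exons of 723 and 597 nt that share an end and reads, at 0.93 to 0.99 and 0.87 to 0.98 over all libraries. Exons of DDX56, another nucleolar helicase, and of DDX42 (237 nt), which binds the SF3B complex, stayed at 0.97 to 0.99 and 0.95 to 0.98. The DDX42 exon differed in its siRNA effect between wild-type TIP60 and empty-vector cells by 0.03 (SE 0.0177, limma adjusted p = 1.00). DHX36, which unwinds G-quadruplexes, ranged from 0.80 to 0.97, with no read without its exon in any library and 11 to 91 with it. DDX19A, an export helicase at the nuclear pore, has the close paralogue DDX19B, and reads of the 2 genes may not have been kept apart.

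In 3′ end formation and export, THOC7, a subunit of the THO complex that couples transcription to export, had an exon at 0.90 and 0.93 against 0.96 and 0.95 in cells with catalytically dead TIP60, 0.91 and 0.87 against 0.95 and 0.93 in wild-type TIP60 cells, and 0.90 and 0.96 against 0.93 in both libraries in empty-vector cells. The average difference of −0.03 (SE 0.0139) did not pass with limma (adjusted p = 0.474), and reads without the exon numbered 0 to 8 per library. CPSF4, which reads the polyadenylation signal, had a 96-nt exon at 0.87 to 0.94 with 1 read without it in all, in a TIP60-siRNA library of the catalytically dead line. THOC6 was at 0.93 to 0.97 with no such read, and CPSF6, a subunit of cleavage factor I, had a coding exon that few transcripts carried, at 0.02 to 0.12. Of the spliceosome genes, SF3B2, part of the U2 particle, stayed at 0.96 to 0.99, LUC7L2, a U1-associated protein, at 0 to 0.05, and an untranslated exon of PRPF38B at 0.01 to 0.17. The PRPF38B exon was at 0.07 and 0.01 against 0.10 in both control libraries of wild-type TIP60 cells (−0.06, SE 0.0457, limma adjusted p = 1.00).

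Members with libraries at least 0.1 apart numbered 0, except for higher levels in empty-vector cells. Among 55 members counts this small cannot be set apart from the shares of all events, and no test was made. In empty-vector cells 2 of 55 members, CNOT4 and EIF4H, had TIP60-siRNA libraries at least 0.1 over both control libraries, a larger share than the 0.891% of all events. In the same cells 0 were at least 0.1 under them (2.6%). In catalytically dead TIP60 cells 0 were over (0.705%) and 0 under (3.41%), and in wild-type TIP60 cells 0 were over (0.334%) and 0 under (2.19%). No member was separated in this way in 2 or more lines, in either direction, against 0.223% of all events over and 2.08% under. Libraries that did not overlap by any margin were found in 8 members in catalytically dead TIP60 cells (22.9% of all events), 6 in wild-type TIP60 cells (19.4%) and 8 in empty-vector cells (21.8%). As shares of 55 these are under the background. Mean inclusion was over 0.9 in 50.9% of members, against 38.3% of all tested events, and its part in these counts was not tested.

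The lines were also compared with each other, in comparisons that share the libraries of a line and so are not independent. With limma 0 members passed for the difference between the siRNA effects of catalytically dead and wild-type TIP60 cells (0% of all events, and 0 members at an unadjusted p under 0.05, against 1.19%), of wild-type TIP60 and empty-vector cells (0%; 0 members, against 1.63%), or of catalytically dead TIP60 and empty-vector cells (0%; 1 member, against 1.34%). That 1 member was EIF4H, whose siRNA effect was smaller in catalytically dead TIP60 than in empty-vector cells by 0.18 (difference −0.18, SE 0.0687, limma adjusted p = 1.00). The exon of LSM14A had −0.085 (SE 0.0466) in the same comparison and in that of wild-type TIP60 with empty-vector cells, with limma adjusted p = 1.00 in both. The CPSF4 and EIF4E2 exons had −0.055 (SE 0.0336) and −0.07 (SE 0.0439) for catalytically dead against wild-type TIP60 cells, and THOC7 −0.05 (SE 0.0339) for wild-type TIP60 against empty-vector cells, again with adjusted p = 1.00.

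Under control siRNA the constructs alone were compared. With limma 0 members passed for catalytically dead TIP60 against empty-vector cells (0%; 1 member at an unadjusted p under 0.05, against 0.779%) or for wild-type TIP60 against empty-vector cells (0%; 0 members, against 1.56%). The 1 member was CNOT4, at 0.59 and 0.66 in catalytically dead TIP60 cells against 0.50 and 0.29 in empty-vector cells, a difference of 0.23 (SE 0.0930, limma adjusted p = 1.00). Without the empty-vector library at 0.29, which also enters the siRNA comparison in that line, the difference was 0.125. EIF4H was at 0.09 and 0.18 in wild-type TIP60 cells against 0.18 and 0.24 in the empty-vector line (−0.075, SE 0.0486; adjusted p = 1.00 with limma). The EIF4E2 exon differed by −0.05 (SE 0.0310) and that of EXOSC3 by 0.035 (SE 0.0225) in the same comparison, and CNOT8 (162 nt) and CPSF4 by −0.025 (SE 0.0189) and 0.03 (SE 0.0238) in that of catalytically dead TIP60 cells. With the replicate block and with the quasi-binomial models the count of members stayed 0 in all 5 comparisons of lines (0% of all events in each).

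Event reads, the reads that fit at least 1 isoform of an event, were taken in RPM for all 84 members. They follow the abundance of the exons of an event, are not a count of the gene, and in bulk RNA cannot tell fewer cells of a kind from less RNA in each cell. Limma on log2(RPM + 0.5) called 0 of 84 members in catalytically dead TIP60 cells (0% of 4992 events; 2 members at an unadjusted p under 0.05, against 4.67%), in wild-type TIP60 cells (0%; 1 member, against 1.88%), in empty-vector cells (0%; 2 members, against 4.77%) and in the average (0.741%; 4 members, against 11%). In the comparisons of constructs under control siRNA 0 members passed or reached an unadjusted p under 0.05 (0% called in both, and 0% and 0.2% of all events at an unadjusted p under 0.05 for catalytically dead and wild-type TIP60 cells). The median log2 difference in the average was −0.08 for members and −0.10 for all events, and after centring on the median event it was 0.05 and 0.03.

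With the replicate block the average called 8 members (16.8% of all events; 8 of 84 members are 9.52%), of which 3 were higher and 5 lower with TIP60 siRNA. In empty-vector cells it called 2 (3.08%), and none in catalytically dead TIP60 (2.84%) or wild-type TIP60 cells (0.02%) or between constructs (0% in both comparisons). With libraries also centred on their median event, the counts were 6 members in the average (15%) and 0 in empty-vector cells (1.6%). Higher in 6 of 6 pairs were 9 members, against 12.1% of all events, and lower in 6 of 6 were 13, against 18.7%.

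EIF3K, a peripheral subunit of eIF3, was the clearest of them. The event of its 99-nt exon had 606.0 and 730.1 RPM with TIP60 siRNA against 472.7 and 360.1 RPM with control siRNA in catalytically dead TIP60 cells, 857.2 and 769.3 against 488.6 and 429.8 RPM in wild-type TIP60 cells, and 809.2 and 744.4 against 458.5 and 325.1 RPM in empty-vector cells. The groups did not overlap in any line. On the log2(RPM + 0.5) scale the average difference was 0.84 (SE 0.167, limma adjusted p = 0.0667); with the block EIF3K rose (SE 0.116, adjusted p = 0.00168), and also when 1 library was left out, in 12 of 12 cases. In empty-vector cells the blocked difference was 1.01 (SE 0.20, limma adjusted p = 0.0292), a call that held in 2 of 12 cases with 1 library left out. The event of the 78-nt exon, in the same gene and so not independent, also rose with the block (1.02, SE 0.197, in the average, limma adjusted p = 0.00784). Its reads depended on the library number, at 381.8 to 871.1 RPM in libraries numbered 1 and 11.7 to 48.5 RPM in those numbered 2. The inclusion of the 99-nt exon stayed at 0.97 to 1.00 throughout.

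The LSM14A event of the 57-nt exon went the other way. Its reads stood at 332.4 and 337.3 RPM against 528.5 and 588.6 RPM in cells with catalytically dead TIP60, 429.3 and 478.1 against 528.9 and 608.5 RPM in wild-type TIP60 cells, and 412.9 and 373.0 against 645.7 and 565.4 RPM in empty-vector cells, without overlap in any line. The average log2 difference was −0.56 (SE 0.145, limma adjusted p = 0.142), and with the block it fell (adjusted p = 0.00568), in 12 of 12 cases with 1 library left out. Centring on the median event with the block gave −0.43 and an adjusted p of 0.0824. The event of the 123-nt exon of LSM14A had 76.7 and 16.4 against 100.0 and 28.7 RPM, 96.9 and 20.0 against 115.5 and 22.6 RPM, and 66.5 and 34.1 against 110.8 and 29.2 RPM in the same order of lines, with overlap in each.

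EIF4G3, a paralogue of EIF4G1, also fell with the block. For the event of the 840-nt exon it had 217.1 and 73.6 RPM against 285.2 and 187.7 RPM in cells with catalytically dead TIP60, 204.4 and 108.8 against 366.1 and 211.2 RPM in wild-type TIP60 cells, and 95.2 and 160.0 against 207.2 and 279.8 RPM in empty-vector cells. Libraries overlapped in the first of these lines. The average log2 difference was −0.91 (SE 0.346, limma adjusted p = 0.373, and 0.0482 with the block, a call held in 3 of 12 cases with 1 library left out). EIF3E, an eIF3 subunit, had 674.4 and 624.4 against 1104 and 1192 RPM, 919.9 and 948.9 against 1167 and 1202 RPM, and 514.6 and 992.3 against 702.4 and 1197 RPM in the same order of lines, with overlap in empty-vector cells alone. Its average was −0.51 (SE 0.211, limma adjusted p = 0.422, and 0.0462 with the block, held in 3 of 12 cases); after centring with the block the adjusted p was 0.0788.

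The other members called with the block in the average were an event of PABPC4, a cytoplasmic poly(A)-binding protein (0.55, SE 0.135, limma adjusted p = 0.0228, held in 5 of 12 cases), the second EIF4G3 event (−1.16, SE 0.310, adjusted p = 0.0303, held in 5 of 12) and LUC7L2 (−0.68, SE 0.157, adjusted p = 0.0179, held in 7 of 12). LUC7L2 reads also depended on the library number, at 269.2 to 603.4 RPM in libraries numbered 2 and 25.2 to 55.3 RPM in those numbered 1. The second EIF4G3 event stood at 29.2 to 86.2 RPM in libraries numbered 1 and 2.27 to 11.3 RPM in those numbered 2. In libraries numbered 2 it held only 4, 4 and 3 reads with TIP60 siRNA, against 17, 17 and 14 with control siRNA. These are in the order catalytically dead, wild-type and empty-vector line. LSM12 had 1002 and 749.8 RPM against 726.2 and 589.5 RPM in the empty-vector line (0.41, SE 0.270; adjusted p = 1.00 with limma). LSM1 had 150.9 and 164.9 against 119.0 and 127.5 RPM in wild-type TIP60 cells (0.36, SE 0.312, adjusted p = 1.00), and an event of CNOT8 in its 130-nt untranslated exon had 8.33 and 6.26 against 15.9 and 16.6 RPM in cells with catalytically dead TIP60 (−1.12, SE 0.630, adjusted p = 1.00).

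**Figure D4:**
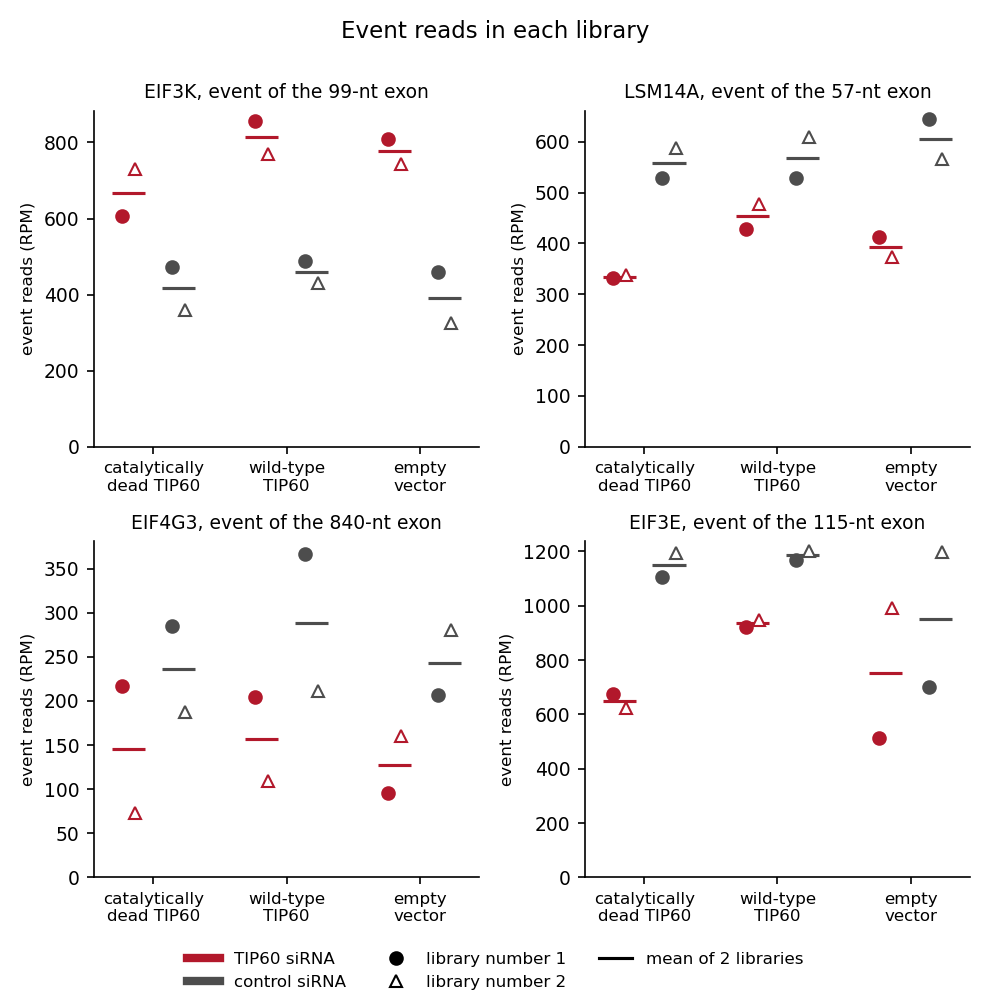
Event reads (RPM, axes from 0) of 4 members in each library, by line, with TIP60 siRNA left of control siRNA; circles are libraries numbered 1, triangles libraries numbered 2, and lines the means of 2. EIF3K is higher and LSM14A lower with TIP60 siRNA without overlap in every line.

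The 29 members below the read minimum included the genes of nonsense-mediated decay UPF3A and UPF3B, the decapping factor DCP1A, the exosome genes EXOSC9 and EXOSC10, CNOT10, and CSTF3 and THOC5 of 3′ end formation and export. The helicases DDX11, DDX19B and DHX33 and the translation genes LARP4, EIF5A2, EIF4ENIF1, EIF1AD, EIF2B1, EIF2AK2, EIF2A and PABPC1L were also among them, as were further events of CNOT8, EIF4G1, EIF4G3, EIF4E and EIF4E2. Of these 29, only the EIF4G3 event named above passed for event reads in the siRNA comparisons with the block. DCP1A reads were lower with TIP60 siRNA in 6 of 6 pairs, at 40.8 and 6.26 against 49.1 and 34.5 RPM in cells with catalytically dead TIP60, 32.9 and 18.0 against 78.2 and 27.9 RPM in wild-type TIP60 cells, and 6.04 and 37.2 against 32.1 and 40.2 RPM in empty-vector cells, and did not pass. Over all 84 members the median event held 48.7 RPM, from 3.53 to 2993 RPM.

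Other genes of the same pathways were taken from lists that leave the members out. In the average over lines, where limma called 2.12% of all tested events, it called 1 of 28 events in 18 genes of elongation and the ribosome, lower, and 0 of 6 events in 6 genes of nucleases and cofactors of decay, 0 of 2 events in 1 gene of the exon junction complex and its partners, 0 of 7 events in 4 genes of 3′ end formation and export, and 0 of 11 events in 10 spliceosome genes. At an unadjusted p under 0.05 these lists held 2, 1, 0, 2 and 0 events, against 12.4% of all tested events. The call was an exon of EEF1D, a subunit of the factor that recharges elongation factor 1 (−0.0467, SE 0.00758, limma adjusted p = 0.0366, and 0.0321 with the block). PUM2, which binds 3′ untranslated regions and recruits CCR4-NOT, had −0.197 (SE 0.0384, limma adjusted p = 0.0558) and fell with the block (adjusted p = 0.0292). In the single lines 0 events of these lists passed with or without the block.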

How the data were processed

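Per the labels, TRIzol RNA was turned into stranded mRNA libraries. STAR and hg38 are named in the submitters' processing notes; versions: not given in the sources used here. Each deposited table holds, per the file headers, a posterior mean from MISO, which is a fraction of inclusion rounded to 2 decimals, and the bounds of its interval. The authors also deposited raw read counts in 4 classes: reads compatible with inclusion alone, with skipping alone, with both forms and with neither. The labels do not say what made the libraries numbered 1 and 2 differ in depth and in reads that fit neither form.

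Events were matched to GENCODE release 29. Inclusion was fitted in limma 3.58.1 (R 4.3.3) with a factor of 6 groups over 12 libraries and a robust variance trend over log2 mean specific reads; p-values are two-sided and Benjamini-Hochberg adjusted over 2695 events. Event reads were scaled to RPM from the deposited counts and fitted as log2(RPM + 0.5) over 4992 events, which understates changes of low events. The scripts were tested on simulated data. Tables and figures used Python 3.11.15, pandas 2.3.3 and matplotlib 3.10.9.

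Replicate numbers were taken to pair libraries, since deviations from group means correlated across events between the libraries of a line that share a number (Pearson r 0.744 to 0.779 for inclusion and 0.852 to 0.896 for event reads in the 3 lines). Alternatives were the replicate block, a quasi-binomial model of the reads with 0.5 added to both classes, with and without the block, other read minimums, log2 odds, the read ratio, another pseudocount or scaling, a plain variance, only the libraries of a comparison, and each library left out. The block together with a left-out library or with median centring was chosen after seeing the data.

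The rule for named genes took, for each siRNA comparison of inclusion, up to 6 members of smallest p, for each other comparison 3, for event reads up to 4, any past 0.05, those at least 0.1 apart in 2 or more lines, the 3 lowest and 3 highest levels and genes with 3 or more tested events. Other members were named after their values were seen. Members and lists were chosen with earlier results of these data known. Events sharing an exon or nested in each other (EIF4A1, EIF4G1, EIF5A, DDX24, PABPC4 and, below the read minimum, EIF1AD and EIF5A2) share reads. Exons of DDX47, EIF4A1, DDX19A and DDX19B are also annotated to overlapping genes. The values of 1 gene among the members are not reported here, though it is counted in all totals.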

Additional observations from a re-analysis of the deposited data

How the results depend on the processing

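Counts of members past an adjusted p of 0.05 stayed at 0 in every comparison under the alternatives without the replicate block. With the block, and with the quasi-binomial model with the block, the average over lines called 1 member for inclusion; leaving out 1 library as well gave 0 to 2 (1.52% to 4.6% of all events). For event reads the block called 2 members in empty-vector cells (0 to 2 with 1 library left out, against 0.581% to 5.27% of all events) and 8 in the average, or 6 with median centring. That count of 8 (16.8% of all events) was 16 (24.1%) without TIP60-siRNA replicate 2 of empty-vector cells, 11 (21.1%) without TIP60-siRNA replicate 1 of catalytically dead TIP60 cells, 10 (16%) and 5 (11.9%) without control replicates 1 and 2 of empty-vector cells, 8 (16.2%) without TIP60-siRNA replicate 1 of empty-vector cells, and 3 or 4 (7.57% to 11.8%) without any one of the other libraries; the cause was not tested. The EXOSC1 exon (85 nt) in wild-type TIP60 cells turned to 0.025 without TIP60-siRNA replicate 2 and was at −0.185 without replicate 1. The other values of single exons or events kept their direction in the alternatives run: 1195 kept their side of the threshold, and 47 passed it where the reported fit had not. Groups of 2 libraries, 13 to 27 isoform-specific reads in the median event of a library, and deposited intervals with a median width of up to 0.455 for a member (EIF4G3) limit what inclusion can show.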
